A study of Mus musculus with 5 samples.

Results

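The proteasome and immunoproteasome subunit genes were defined as the mouse genes whose symbol is Psma, Psmb, Psmc, Psmd or Psme followed by a number. The rule found 43 genes among 38166 features of the KSL tables and 34315 features of the granulocyte tables. Of these, Psmb8, Psmb9, Psmb10, Psme1 and Psme2 were set apart as the 5 immunoproteasome genes, and the other 38 are called other proteasome genes. RNA of polyA-selected libraries was sequenced in C57BL/6 mice. Granulocytes were Gr1+ bone marrow cells of mice aged 12 months, sequenced as 2 technical replicates of 1 biological replicate (n = 1). The KSL libraries came from c-Kit+ Sca-1+ lineage-negative cells, which hold the stem and early progenitor cells of blood. Their donors had received 5-FU, a drug that kills dividing cells, and Sca-1+ cells were transduced with a retrovirus carrying GFP, cultured for 2 days with cytokines and sorted as GFP+ KSL cells. The virus was directed against LncHSC-1, against LncHSC-2, or was a knockdown control, with 1 library each. All 3 KSL groups therefore share the drug, the virus and the culture, which the granulocytes do not have. No label or table says which features are the long non-coding RNAs themselves, and how far each was knocked down was not checked.

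The proteasome is the barrel-shaped protease that degrades ubiquitin-tagged proteins. Alpha and beta rings form its core, a base of ATPases and a lid form its regulatory cap, and activators of the Psme family can replace that cap. Interferon-induced cells exchange the catalytic beta subunits Psmb5, Psmb6 and Psmb7 for Psmb8, Psmb9 and Psmb10, which changes the peptides left for loading onto MHC class I molecules. Blood cells are known to carry much immunoproteasome at rest.

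In the KSL tables, 41 of the 43 genes had a mean of at least 5 FPKM (fragments per kilobase of feature, scaled to the library) over the 3 libraries and are called measured, with 659 to 10636 estimated reads each. The KSL libraries held an estimated 24145600 reads after LncHSC-1 knockdown, 19934925 after LncHSC-2 knockdown and 21018469 in the control. The granulocyte depth is not given, and the totals of its count columns, which look scaled, were 40414961 and 40394825. The 7 KSL marker genes, Kit and Ly6a among them, summed to at most 11.2 FPKM in a granulocyte replicate, 1635 after LncHSC-1 knockdown, 1468 after LncHSC-2 knockdown and 1459 in control KSL cells. Most of the KSL sums was Ly6a, with 1211, 1025 and 1010 FPKM in that order. Of the 7 genes, 3 were higher after LncHSC-1 knockdown than in the control, where 43.8% of all features were. The other 4 (Kit, Cd34, Flt3 and Meis1) were lower. The 7 granulocyte markers summed to 138324 and 141221 FPKM in granulocytes, 109 after LncHSC-1 knockdown, 105 after LncHSC-2 knockdown and 118 in control KSL cells. Each cell population thus carried the markers of its label. The granulocyte sample also carried other markers: 12 monocyte, macrophage and dendritic markers summed to 436 FPKM in each replicate. In control KSL cells they summed to 195 FPKM. Of these 12 markers, 11 reached 5 FPKM in each granulocyte replicate. Whether the Gr1+ sample held such cells was not tested. With 1 biological sample per group no test between groups was possible, and no p-value is given. Intervals of ratios between libraries are exact binomial 95% intervals of the estimated reads of 2 libraries, and compare those libraries, not the conditions. Intervals of a ratio of 2 genes are 95% counting intervals within 1 library. All intervals cover counting error only.

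The 3 catalytic immunoproteasome genes and the activator gene Psme1 are shown by their promoter windows, since the results below are mainly about these genes. The sequences are from RefSeq on GRCm38.p6 and run 5′ to 3′ on the gene's own strand from 250 bases before the annotated start site to 30 bases after it. Capitals mark a match to one of the motifs described below.
Psmb8 (chr17:34197945-34198224, plus strand): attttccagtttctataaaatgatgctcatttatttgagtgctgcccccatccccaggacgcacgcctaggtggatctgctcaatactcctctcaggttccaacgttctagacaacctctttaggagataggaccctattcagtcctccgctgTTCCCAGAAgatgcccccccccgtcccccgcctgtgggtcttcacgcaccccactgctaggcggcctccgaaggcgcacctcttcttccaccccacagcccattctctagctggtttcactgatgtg
Psmb9 (chr17:34187301-34187580, minus strand): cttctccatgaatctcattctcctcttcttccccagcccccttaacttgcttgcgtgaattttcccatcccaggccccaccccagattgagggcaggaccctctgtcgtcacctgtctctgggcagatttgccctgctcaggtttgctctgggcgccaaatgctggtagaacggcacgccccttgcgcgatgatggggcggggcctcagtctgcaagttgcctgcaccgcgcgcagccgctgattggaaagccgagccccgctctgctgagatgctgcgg
Psmb10 (chr8:105938363-105938642, minus strand): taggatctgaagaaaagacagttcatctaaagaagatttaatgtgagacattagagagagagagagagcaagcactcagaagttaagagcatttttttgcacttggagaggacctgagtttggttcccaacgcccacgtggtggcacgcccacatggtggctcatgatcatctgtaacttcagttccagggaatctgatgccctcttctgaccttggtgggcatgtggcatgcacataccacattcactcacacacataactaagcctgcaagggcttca
Psme1 (chr14:55578244-55578523, plus strand): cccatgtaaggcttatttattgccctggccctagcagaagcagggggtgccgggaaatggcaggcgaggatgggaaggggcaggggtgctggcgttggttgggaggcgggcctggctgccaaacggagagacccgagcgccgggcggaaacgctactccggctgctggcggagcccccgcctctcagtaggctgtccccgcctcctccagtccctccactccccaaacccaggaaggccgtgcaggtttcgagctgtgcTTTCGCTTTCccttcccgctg

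The 3 letter patterns below were searched on both strands of 300-base RefSeq windows, which reach 50 bases past the start site. They were GAAA and GAAA with any 2 bases between them, the core of the interferon-stimulated response element (ISRE), TTCNNNGAA, the palindromic interferon-gamma activated site (GAS), and TGACNNNGC, the antioxidant response element (ARE). No matches to different patterns overlapped in the windows of these genes. Windows matched 36 of the 43 genes, including the 5 immunoproteasome genes. The ISRE letters stood in 4 of 36 genes (Psmb3, Psmd4, Psmd9 and Psme1), against 3.44% of all 32851 windows. In Psme1 the match lies on the minus strand and begins 9 bases after the start site. The GAS letters stood in Psmb8, 97 bases before the start site, and in Psmd2, against 8.30% of all windows. The ARE letters stood in 6 genes, Psmb5, Psmb6, Psmc6, Psmd9, Psmd12 and Psme4, against 12.4% of all windows, and in 0 of the 5 immunoproteasome genes. The windows of Psmb9, Psmb10 and Psme2 held 0 matches to these letters, which says nothing of other sites or other bases. Psmb9 and Psmb8 are neighbours in the MHC region of chromosome 17. On mm9, the build of the deposited tables, Psmb9 lies at chr17:34319044-34324275 on the minus strand and Psmb8 at chr17:34335140-34338399 on the plus strand. Between them lies Tap1, which encodes a subunit of the peptide transporter TAP, 225 bases from Psmb9 and 969 bases from Psmb8. The Psmb9 and Tap1 windows run in opposite directions and share 275 of their 300 bases. Psmb10 lies apart at chr8:108459628-108462292 on the minus strand. Psme1 and Psme2 face each other on chromosome 14 with 5912 bases between them.

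Proteasome genes were among the higher transcripts of KSL cells. The 31 core genes (alpha ring, beta ring, base and lid) had a median of 125 FPKM after LncHSC-1 knockdown, 125 after LncHSC-2 knockdown and 124 in the control library. In the control library the median core gene stood at percentile 95.6 of features with at least 1 FPKM. Levels differed by role: the control library had a median of 211 FPKM for the 7 alpha ring genes, 173 for the 7 beta ring genes, 111 for the 9 base genes, 96.4 for the 8 lid genes and 20.8 for the 3 base chaperones. Psme1 was the highest gene of the family, with 374 FPKM after LncHSC-1 knockdown, 358 after LncHSC-2 knockdown and 356 in the control. In the control Psmb8 followed, and after it came Psma7, an alpha ring subunit, which had 254, 252 and 250 FPKM in these libraries. The base chaperone Psmd9, which helps to assemble the ATPase ring, was the lowest measured gene, at 12.6, 12.6 and 12.5 FPKM.

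Both genes below the floor are tissue-restricted. Psmb11, the catalytic subunit of the thymus, was listed at 0 in the 5 libraries. Psma8, the alpha subunit of male germ cells, had 0.0593 FPKM in each granulocyte replicate, 3.78 after LncHSC-1 knockdown, 4.53 after LncHSC-2 knockdown and 3.58 in the control. It also stood under 5 FPKM in each KSL library, with 171, 166 and 139 estimated reads in that order.

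**Figure D1:**
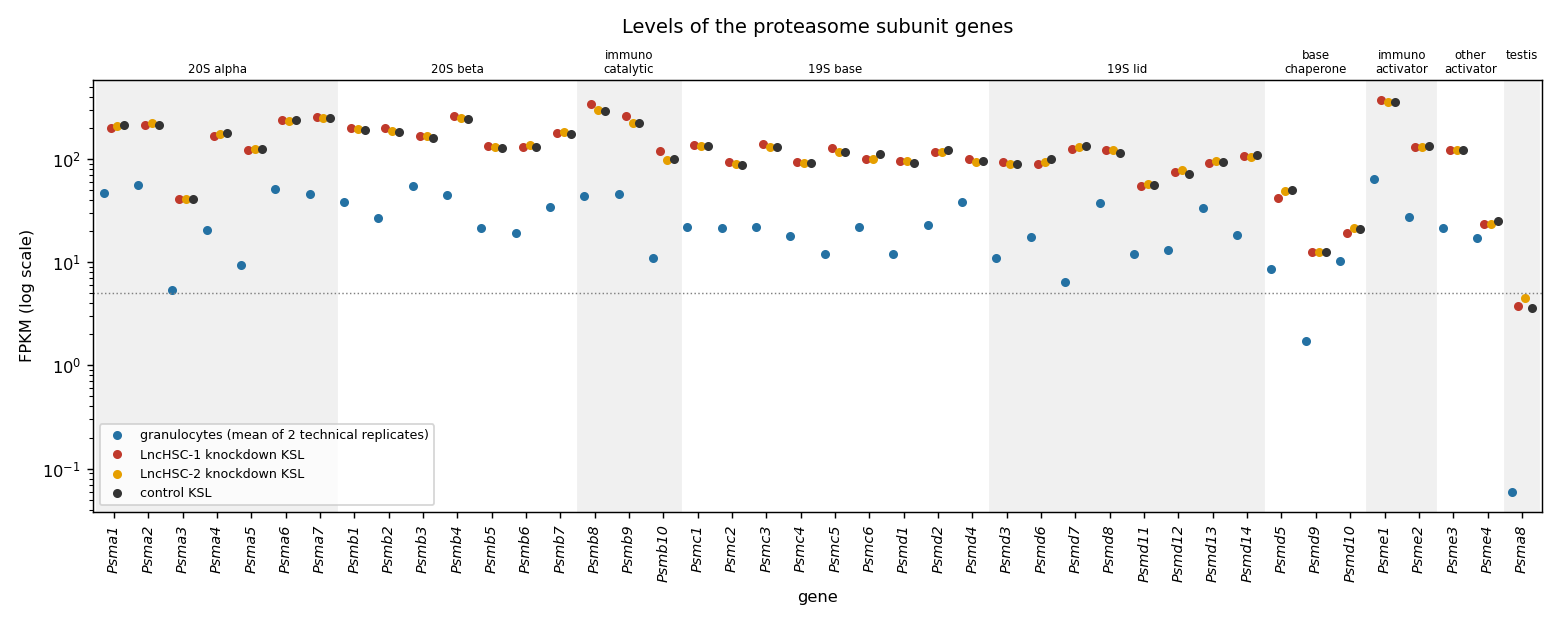
FPKM (log scale) of 42 proteasome genes by role; Psmb11, at 0 in the 5 libraries, is left out. Points are single KSL libraries and the mean of 2 granulocyte technical replicates, the dotted line is 5 FPKM, and "testis" marks Psma8; the KSL points of a gene lie close together and above the granulocyte point.

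Few proteasome genes differed much between the KSL libraries. A log2 ratio of 0.32 in either direction was taken as a rule of size. It was reached by 0 of the 41 measured genes between LncHSC-1 knockdown and control, where 5.83% of the 9153 features with a mean of at least 5 FPKM were. Between LncHSC-2 knockdown and control the count was again 0 of 41, against 3.93% of features. Between LncHSC-1 and LncHSC-2 knockdown it was 0 of 41, against 5.82% of features. Both comparisons with the control share that library, and both comparisons of LncHSC-1 knockdown share its library. Ratios within 10% of 1 were seen for 36 of 41 genes in LncHSC-1 knockdown against control, compared with 70.8% of all features. They were seen for 40 of 41 genes in LncHSC-2 knockdown against control (80.2% of features) and for 36 of 41 in LncHSC-1 against LncHSC-2 knockdown (73.2% of features). Many features in that background have fewer reads than the proteasome genes.

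Set by set, the medians differed most in the comparisons of the LncHSC-1 library. The 5 immunoproteasome genes had a median log2 ratio of 0.20 for LncHSC-1 knockdown over control, while the 36 other measured genes had 0.01 and all features had −0.02. For LncHSC-2 knockdown over control the medians were −0.02 for the immunoproteasome genes, 0.01 for the other proteasome genes and 0.00 for all features. For LncHSC-1 over LncHSC-2 knockdown they were 0.18, 0.00 and −0.03 in the same order. The LncHSC-1 library thus had the higher immunoproteasome median against both other libraries, by less than that rule of size, and 3 of the 5 genes carried it.

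The higher values lay in the catalytic subunits. Psmb8, which encodes the chymotrypsin-like immunoproteasome subunit, had 339 FPKM after LncHSC-1 knockdown, against 299 after LncHSC-2 knockdown and 291 in the control. The LncHSC-1 library was the highest of the 3 and the other libraries lay close together. The fold over control was 1.16 (interval 1.13 to 1.20, log2 0.22), and 6.71% of all features had a log2 ratio as high or higher. Over LncHSC-2 knockdown the fold was 1.13 (interval 1.10 to 1.17).

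Psmb9, the immunoproteasome counterpart of Psmb6, had 259 FPKM after LncHSC-1 knockdown, against 221 after LncHSC-2 knockdown and 225 in the control. Its fold over control was 1.15 (interval 1.10 to 1.20, log2 0.20), a ratio reached by 7.65% of features, and its fold over LncHSC-2 knockdown was 1.17 (interval 1.13 to 1.23). The order was the same as for Psmb8 at the top, with the LncHSC-1 library highest. Psmb10, the counterpart of Psmb7, had 119 FPKM after LncHSC-1 knockdown, against 97.7 after LncHSC-2 knockdown and 99.4 in the control. It had the largest ratio of the 41 measured genes, 1.20 over control (interval 1.14 to 1.26, log2 0.26) and 1.22 over LncHSC-2 knockdown (interval 1.16 to 1.29, log2 0.29). Of all features, 5.18% reached its ratio over control and 3.90% its ratio over LncHSC-2 knockdown. Over control, LncHSC-2 knockdown gave log2 ratios of 0.04 for Psmb8, −0.03 for Psmb9 and −0.02 for Psmb10, each with an interval that holds a ratio of 1.

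The activators did not share this pattern in size. Psme1, a subunit of the PA28 activator, had a fold of 1.05 over control after LncHSC-1 knockdown (interval 1.02 to 1.08) and 1.01 after LncHSC-2 knockdown (interval 0.971 to 1.04). Its partner Psme2 had 130 FPKM after LncHSC-1 knockdown, 131 after LncHSC-2 knockdown and 134 in the control, a fold of 0.971 for LncHSC-1 knockdown over control (interval 0.925 to 1.04). The intervals of the 3 catalytic genes in that comparison lie above those of both PA28 genes. Psme3, the subunit of the nuclear activator, had 122, 121 and 121 FPKM after LncHSC-1 knockdown, after LncHSC-2 knockdown and in the control. Psme4, which encodes the activator PA200, had 23.2 FPKM after LncHSC-1 knockdown, 23.5 after LncHSC-2 knockdown and 25.0 in the control, with folds over control of 0.928 (interval 0.888 to 0.969) and 0.939 (interval 0.898 to 0.984) for the LncHSC-1 and LncHSC-2 knockdowns.

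**Figure D2:**
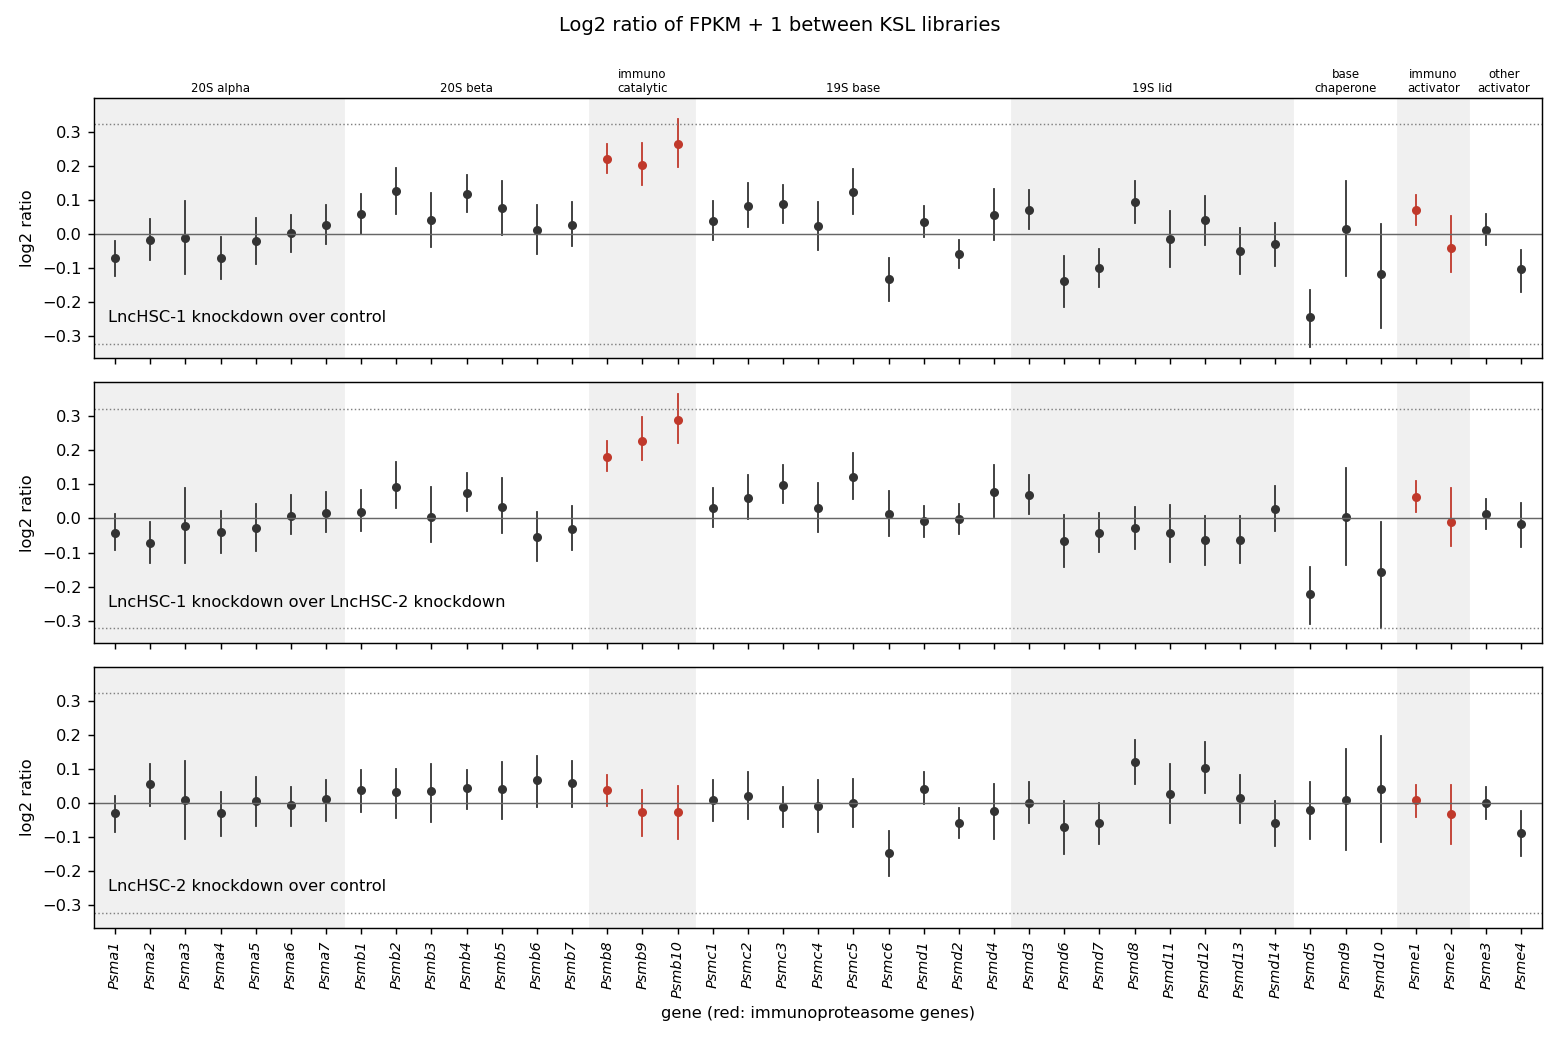
Log2 ratio of FPKM + 1 for the 41 measured genes in 3 comparisons, with LncHSC-1 knockdown over control at the top. Points are ratios of single libraries, bars the 95% counting intervals, and dotted lines a log2 ratio of 0.32 in size; Psmb8, Psmb9 and Psmb10 lie between 0.18 and 0.29 in both comparisons of the LncHSC-1 library and near 0 in LncHSC-2 knockdown over control.

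The constitutive counterparts differed less. Psmb5 had 135 FPKM after LncHSC-1 knockdown, 131 after LncHSC-2 knockdown and 128 in the control, in a feature that also carries the microRNA gene Mir686. Psmb6 had 131, 136 and 130 FPKM in these libraries. Psmb7 had 176, 180 and 173 FPKM. None of these 3 genes had an interval that excluded a ratio of 1 in any of the 3 comparisons.

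Ratios within a library do not depend on the scaling between libraries. Psmb8 over Psmb5 was 2.52 after LncHSC-1 knockdown (interval 2.41 to 2.63), 2.27 after LncHSC-2 knockdown (2.17 to 2.39) and 2.28 in the control (2.17 to 2.39). Psmb9 over Psmb6 was 1.97 after LncHSC-1 knockdown (1.89 to 2.06), 1.62 after LncHSC-2 knockdown (1.54 to 1.70) and 1.73 in the control (1.65 to 1.82). Psmb10 over Psmb7 was 0.678 after LncHSC-1 knockdown (0.649 to 0.708), 0.542 after LncHSC-2 knockdown (0.515 to 0.571) and 0.575 in the control (0.547 to 0.604). For each pair the interval of the LncHSC-1 library lay above those of both other KSL libraries, and those of the other 2 overlapped. Summed over the pairs, the immunoproteasome genes made up 61.9% of the catalytic subunit FPKM after LncHSC-1 knockdown, 58.0% after LncHSC-2 knockdown and 58.8% in the control.

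**Figure D3:**
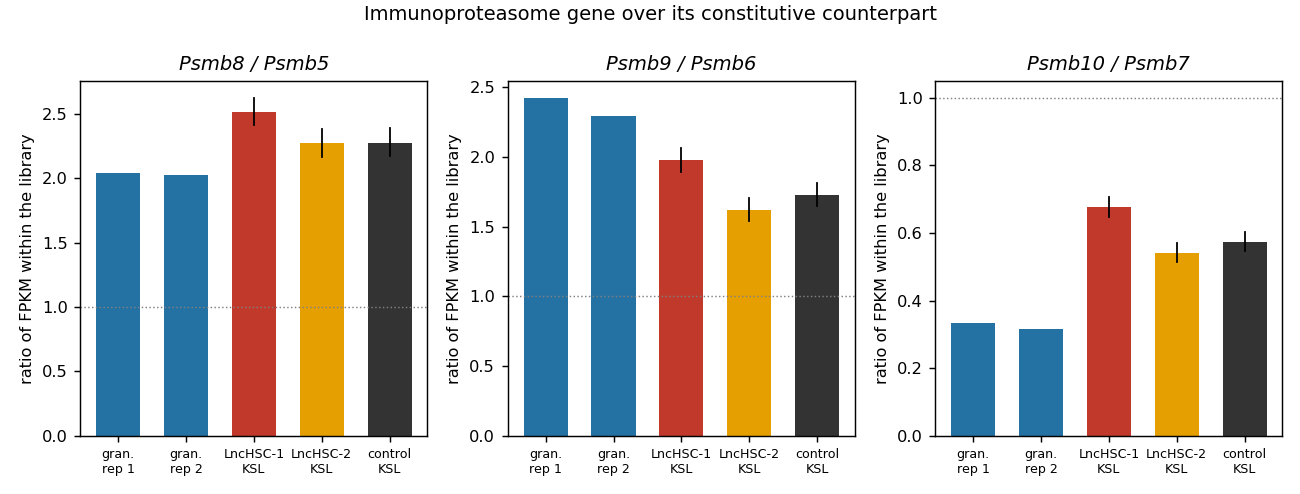
FPKM of each catalytic immunoproteasome gene divided by its constitutive counterpart within each library; bars start at 0, black lines are 95% counting intervals (KSL libraries only), and the dotted line is a ratio of 1. The LncHSC-1 bar is the highest of the KSL bars in each panel, and the granulocyte technical replicates (rep 1 and rep 2) lie below the KSL bars for Psmb8 and Psmb10 and above them for Psmb9.

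Among the other subunits, the rings and caps kept close to the control. The 7 beta ring genes had ratios above 1 after both knockdowns, with median log2 ratios of 0.06 for LncHSC-1 and 0.04 for LncHSC-2 over control, where 43.8% and 52.1% of all features had a ratio above 1. In the alpha ring 2 of 7 genes were above 1 after LncHSC-1 knockdown and 4 of 7 after LncHSC-2 knockdown, with medians of −0.02 and 0.01. The base had medians of 0.04 and −0.01, and the lid −0.02 and 0.01, for LncHSC-1 and LncHSC-2 knockdown over control. The quartile range of the 36 other proteasome genes spanned 0.11 on the log2 scale for LncHSC-1 knockdown over control, against 0.17 for all features, 0.12 for 75 measured mitochondrial ribosome genes and 0.13 for 41 NADH dehydrogenase genes. All of these complexes spread less than the features as a whole in this comparison. Among all features with a mean of at least 50 FPKM the quartile range was 0.15, which is closer to these complexes.

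Single exceptions of larger size were few. Counting intervals excluded a ratio of 1 for 19 of the 41 measured genes in LncHSC-1 knockdown over control, the catalytic immunoproteasome genes among them. They did so for 6 genes in LncHSC-2 knockdown over control and for 13 in LncHSC-1 over LncHSC-2 knockdown. The share of all features under this interval rule is not given. These counts therefore do not set the proteasome genes apart from other features with many reads. Psmd5, a chaperone that holds part of the base before assembly, had 42.2 FPKM after LncHSC-1 knockdown, against 49.4 after LncHSC-2 knockdown and 50.1 in the control. Its fold over control was 0.842 (interval 0.795 to 0.892, log2 −0.24), the lowest of the 41 measured genes, and 4.38% of features had a ratio as low or lower. The LncHSC-2 library stayed next to the control for this gene, with a fold of 0.985 (interval 0.929 to 1.04). Psmd10, another base chaperone, had 19.1 FPKM after LncHSC-1 knockdown, 21.4 after LncHSC-2 knockdown and 20.8 in the control, and its interval over control (0.825 to 1.02) held 1.

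Psmd6 and Psmc6 of the cap were lower after LncHSC-1 knockdown by about the same factor. The lid gene Psmd6 had 89.7 FPKM after LncHSC-1 knockdown, 94.0 after LncHSC-2 knockdown and 98.8 in the control, a fold of 0.908 for LncHSC-1 knockdown over control (interval 0.863 to 0.956). The base ATPase gene Psmc6 had 101 FPKM after LncHSC-1 knockdown, 99.9 after LncHSC-2 knockdown and 111 in the control. Psmc6 was lower in both knockdown libraries than in the control, with folds of 0.911 (interval 0.872 to 0.952) for LncHSC-1 and 0.903 (interval 0.862 to 0.946) for LncHSC-2. The lid gene Psmd8 was higher in both, at 121 FPKM after LncHSC-1 knockdown and 123 after LncHSC-2 knockdown, against 113 in the control, with folds of 1.07 (interval 1.02 to 1.11) and 1.09 (interval 1.04 to 1.14). Psmd12, also of the lid, had 74.1 FPKM after LncHSC-1 knockdown, 77.6 after LncHSC-2 knockdown and 72.1 in the control, a fold of 1.08 for LncHSC-2 over control (interval 1.02 to 1.13). A value shared by both knockdown libraries can come from the one control library they share.

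Genes that act beside the immunoproteasome in antigen presentation had higher levels after LncHSC-1 knockdown too. The gene lists here and below were chosen with earlier results of these data known, so their counts are descriptions. Of 15 measured genes of a list of 16 for MHC class I presentation, 12 had a ratio above 1 for LncHSC-1 knockdown over control, against 43.8% of all features. Their median log2 ratio was 0.20. A log2 ratio of 0.32 or more was seen for 4 of 15 (H2-Q7, H2-Q4, Tapbp and Erap1), against 3.7% of all features. Tap1, the neighbour of Psmb9 and Psmb8, had 171 FPKM after LncHSC-1 knockdown, 152 after LncHSC-2 knockdown and 144 in the control, log2 ratios over control of 0.25 and 0.08. Nlrc5, the transactivator of MHC class I genes, had 36.7 FPKM after LncHSC-1 knockdown, 31.3 after LncHSC-2 knockdown and 31.7 in the control, a log2 ratio of 0.20 for LncHSC-1 over control. For LncHSC-2 knockdown over control 12 of 15 genes were likewise above 1, against 52.1% of features, and the list's median was 0.05. There 1 of 15 genes, the peptide-trimming protease Erap1, reached 0.32, against 2.29% of features. Erap1 had 56.1 FPKM after LncHSC-1 knockdown, 56.8 after LncHSC-2 knockdown and 44.2 in the control. For LncHSC-1 over LncHSC-2 knockdown the list's median was 0.17.

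The interferon response list, chosen with earlier results of these data known, lay further from the control than the proteasome genes. Its counts beside all features are therefore a description and not independent support. All 38 of its genes were measured and had a ratio above 1 for LncHSC-1 knockdown over control, against 43.8% of all features, with a median log2 ratio of 0.39. A ratio of 0.32 or more was seen for 25 of 38, against 3.7% of features. For LncHSC-2 knockdown over control 31 of 38 had a ratio above 1, against 52.1% of features, with a median of 0.04. In that comparison 0 of 38 reached 0.32, against 2.29% of features. Cxcl10, a chemokine gene, had 137 FPKM after LncHSC-1 knockdown, 56.4 after LncHSC-2 knockdown and 52.2 in the control. Irf1, a factor that induces immunoproteasome genes, had 41.2 FPKM after LncHSC-1 knockdown, 39.1 after LncHSC-2 knockdown and 38.6 in the control, a log2 ratio of 0.09. Irf1 was among the interferon genes closest to the control, while the catalytic immunoproteasome genes lay at 0.20 to 0.26.

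**Figure D4:**
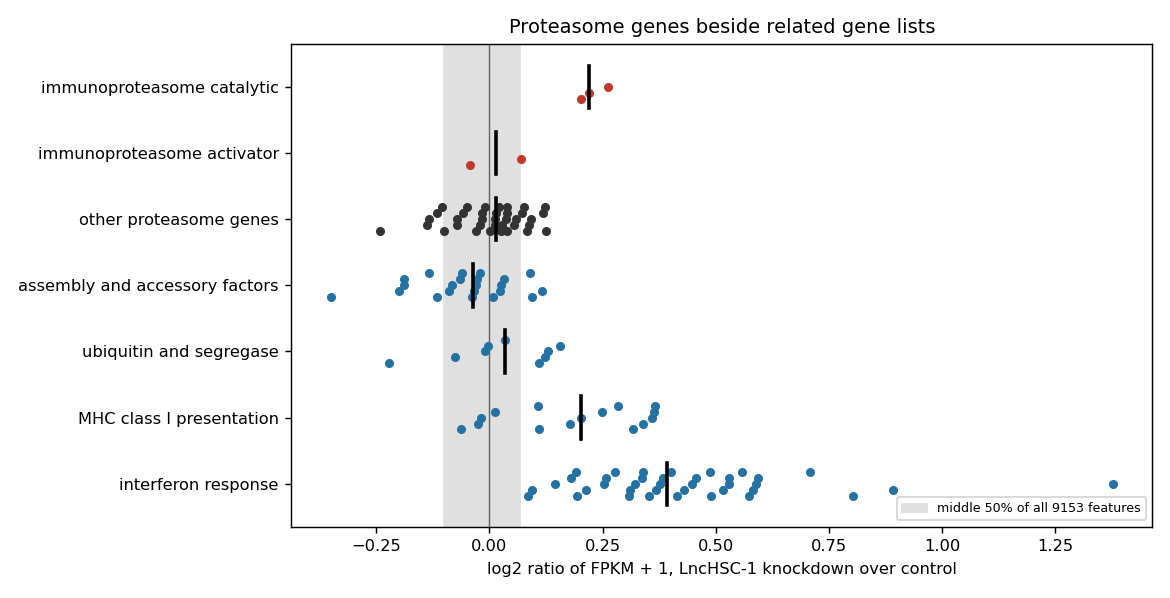
Log2 ratio of FPKM + 1 for LncHSC-1 knockdown over control; each point is a gene, spread vertically for legibility, black bars are medians and the grey band is the middle 50% of all 9153 features. The catalytic immunoproteasome genes lie between 0.20 and 0.26, above the other proteasome genes (median 0.01) and below the median of the interferon list (0.39).

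Most marker lists of other blood cells had higher sums in the same library, but the granulocyte list did not. The 7 granulocyte markers summed to 109 FPKM after LncHSC-1 knockdown, 105 after LncHSC-2 knockdown and 118 in the control. The 4 erythroid markers summed to 92.6, 69.1 and 86.3 FPKM in that order. The 10 B lineage markers summed to 107 FPKM after LncHSC-1 knockdown, 61.9 after LncHSC-2 knockdown and 59.0 in the control, and 6 of the 6 measured reached a log2 ratio of 0.32 for LncHSC-1 over control, against 3.7% of all features. Below the floor, Pax5 had 2.49 FPKM after LncHSC-1 knockdown, 1.12 after LncHSC-2 knockdown and 0.867 in the control. Vpreb1 went the other way, with 0.335, 0.691 and 0.521 FPKM in that order. Ebf1 was under 1 FPKM in each KSL library, and in the control Igll1 was at 0. The 12 monocyte, macrophage and dendritic markers summed to 329 FPKM after LncHSC-1 knockdown, 208 after LncHSC-2 knockdown and 195 in the control, again with 6 of 6 measured at 0.32 or more, against 3.7% of all features. The 4 MHC class II genes of that list (Cd74, H2-Aa, H2-Ab1 and H2-Eb1) made up 281 FPKM of the sum after LncHSC-1 knockdown, 173 after LncHSC-2 knockdown and 159 in the control. The lineage markers Csf1r and Emr1, by contrast, had 2.31 and 2.82 FPKM after LncHSC-1 knockdown, 2.09 and 2.21 after LncHSC-2 knockdown and 2.24 and 2.79 in the control. Cd74 alone had 143 FPKM after LncHSC-1 knockdown, 83.0 after LncHSC-2 knockdown and 73.7 in the control. The 6 T and NK markers summed to 10.2 FPKM after LncHSC-1 knockdown, 5.88 after LncHSC-2 knockdown and 6.82 in the control, with Cd3e and Ncr1 at 0 in the LncHSC-1 library and Cd3d and Cd3e at 0 in the LncHSC-2 library. Nearly all of that sum was Thy1, with 9.87 FPKM after LncHSC-1 knockdown, 5.55 after LncHSC-2 knockdown and 6.44 in the control. The part of these cells in the immunoproteasome ratios was not tested. In such bulk libraries a different number of cells of a type and a different amount of RNA per cell cannot be told apart.

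Factors that assemble or regulate the proteasome did not follow the catalytic subunits. Of 22 measured genes of a list of 23, 7 were above and 15 below the control after LncHSC-1 knockdown, with a median log2 ratio of −0.04. After LncHSC-2 knockdown 13 were above and 9 below, with a median of 0.02. Of all features, 43.8% were above the control after LncHSC-1 knockdown and 52.1% after LncHSC-2 knockdown. A log2 ratio of −0.32 or less was seen for 1 of 22, against 2.13% of features, for LncHSC-1 knockdown over control. It was Ubqln2, a shuttle factor for ubiquitinated proteins, with 17.7 FPKM after LncHSC-1 knockdown, 20.5 after LncHSC-2 knockdown and 22.8 in the control. Pomp, the maturation factor of the core, had 182 FPKM after LncHSC-1 knockdown, 203 after LncHSC-2 knockdown and 186 in the control. Nfe2l1, the transcription factor that restores proteasome genes when the proteasome is blocked, had 27.5, 27.3 and 27.0 FPKM in these libraries. Of 9 ubiquitin and segregase genes, 5 were above the control after LncHSC-1 knockdown (43.8% of all features) and 7 after LncHSC-2 knockdown (52.1%). Their medians were 0.03 and 0.09.

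Proteasome genes had lower FPKM in granulocytes than in control KSL cells. The median core gene had 21.8 FPKM in granulocytes and 124 FPKM in control KSL cells. The 43 genes together took 0.239% of the granulocyte FPKM sum and 1.26% of that of control KSL cells. Of the granulocyte sum, 26.4% belonged to S100a8 and S100a9, the calprotectin genes, and without them the share of the proteasome genes was 0.325%. By rank, the median core gene stood at percentile 77.2 of granulocyte features with at least 1 FPKM and at percentile 95.6 of such control KSL features. The tables come from separate experiments with separate scaling, from bone marrow granulocytes and from cultured cells that carry a virus, so cell type, treatment and processing cannot be told apart. The largest ratio between the technical replicates of granulocytes was 1.10 (Psma4).

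Granulocyte levels kept much of the order seen in KSL cells. Spearman's rho between granulocytes and control KSL cells was 0.78 across the 42 genes above 0 and 0.67 across the 31 core genes. Both are descriptions in which the points share 1 biological sample on each axis. Psme1 was the highest gene in both, with 63.7 and 63.0 FPKM in the granulocyte replicates and 356 FPKM in control KSL cells. After it in granulocytes came Psma2, an alpha ring subunit, with 55.5 and 55.4 FPKM, and the beta ring gene Psmb3 with 54.6 and 53.5 FPKM. At the low end Psmd9 had 1.80 and 1.66 FPKM in granulocytes, and 40 of the 43 genes reached 5 FPKM.

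Levels were therefore expressed relative to the median of the 31 core genes of the same cells. On this scale 35 of the 41 genes were within 2-fold between granulocytes and control KSL cells. Psme4 stood furthest apart, at 0.78 of the core median in granulocytes and 0.20 in control KSL cells. Its FPKM was 16.7 and 17.3 in the granulocyte replicates, against 25.0 in the control, so that this activator gene differed little where the core genes differed much. Psmd10 was at 0.47 of the core median in granulocytes and 0.17 in control KSL cells. In the other direction the lid gene Psmd7, singled out once its value was known, was at 0.30 of the core median in granulocytes and 1.08 in control KSL cells. Its FPKM was 6.40 and 6.53 in the granulocyte replicates and 135 in the control. The other 3 past 2-fold, also singled out that way, were Psmd4 (1.75 in granulocytes, 0.77 in control KSL cells), Psmd13 (1.54 and 0.76 in that order) and Psma5 (0.43 and 1.00). Lengths implied by the granulocyte and KSL tables differed by less than 0.32 on the log2 scale for 41 of 42 genes, the exception being Psme2 at 1.29-fold.

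**Figure D5:**
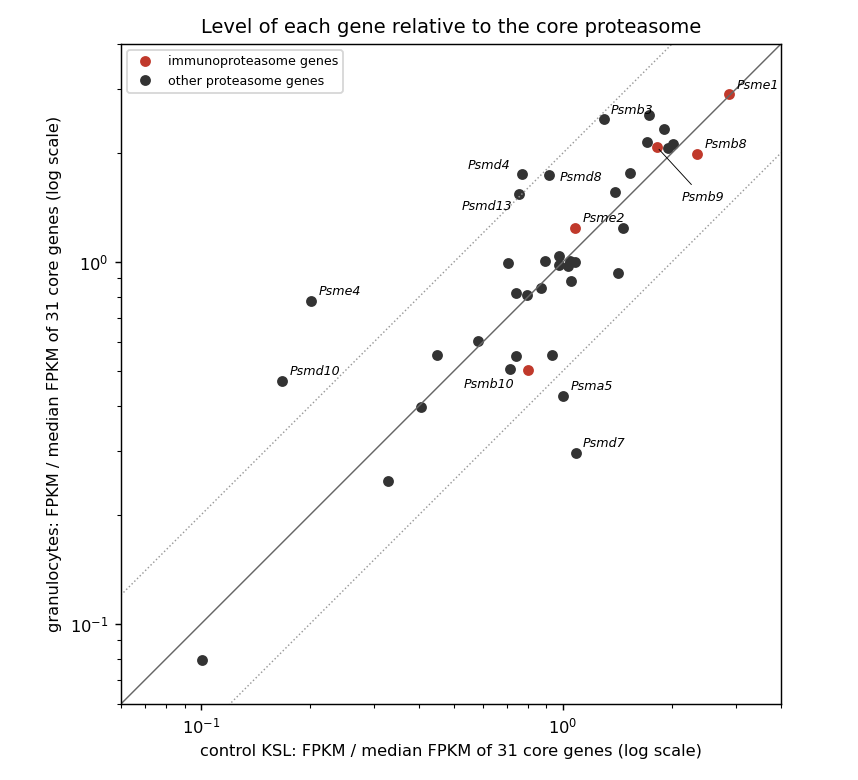
FPKM of the 41 measured genes relative to the median of the 31 core genes, in granulocytes (vertical, mean of 2 technical replicates) and control KSL cells (horizontal), both on log scales. The solid line marks equal values and dotted lines 2-fold; Psme4 and Psmd10 lie above and Psmd7 and Psma5 below.

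The immunoproteasome genes of granulocytes did not stand apart as a set on that scale. Psmb8 had 44.3 and 42.4 FPKM in the granulocyte replicates, 1.99 times the core median, against 2.35 times in control KSL cells. Psmb9 had 45.1 and 45.6 FPKM, 2.08 times the core median, against 1.81 times in control KSL cells. Psmb10 had 11.4 and 10.6 FPKM, 0.50 times the core median, against 0.80 times in control KSL cells. Psme2 had 27.2 and 27.0 FPKM, 1.24 times the core median, against 1.08 times in control KSL cells. Psme1 was at 2.91 times the core median in granulocytes and 2.87 times in control KSL cells. Psmb9 thus lay higher and Psmb8 and Psmb10 lower relative to the core in granulocytes, while the difference of Psme2 was smaller than the 1.29-fold difference in its implied length between the tables. Against the constitutive counterparts, Psmb8 over Psmb5 was 2.04 and 2.03 in the granulocyte replicates and 2.28 in control KSL cells. Psmb9 over Psmb6 was 2.42 and 2.30 in granulocytes and 1.73 in control KSL cells. Psmb10 over Psmb7 was 0.333 and 0.315 in granulocytes and 0.575 in control KSL cells. The pairs differed in opposite directions, and the share of the 3 immunoproteasome genes in catalytic subunit FPKM was 57.5% and 57.0% in granulocytes and 58.8% in control KSL cells.

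Some members share bases with other genes, and whether counting used strand is not stated in the labels or headers. Psma3 overlaps 3110056K07Rik, Psma4 overlaps AY074887, Psmd1 overlaps Htr2b, Psmd11 overlaps HAG_006932 and Psme1 overlaps Fam158a. Of these partners HAG_006932 had the highest level, 20.5 FPKM after LncHSC-1 knockdown, 21.3 after LncHSC-2 knockdown and 20.3 in the control. The other 4 had at most 6.97 FPKM in any KSL library.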

How the data were processed

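PolyA-selected RNA of 5 mouse libraries was analysed. Per the file headers, the deposited tables give FPKM, which was used as the authors scaled it. The KSL count columns as deposited are a signal in which reads were scaled by a library factor. Among values up to 20 reads, 91.9% to 92.2% fell within 0.1 of a whole multiple of 1 step (0.924 for LncHSC-1 knockdown, 1.03 for LncHSC-2 knockdown, 1.08 for control), and dividing by it gave estimated reads. The granulocyte count columns as deposited are a scaled and rounded score, not counts. Per the submitters' processing notes, the authors used the mm9 build and DESeq. An aligner and an annotation release are not given in the sources used.

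Ratios are log2(FPKM + 1), which understates low genes, for features with a mean of at least 5 FPKM over 3 KSL libraries. No test fits 1 sample per group. Intervals of ratios between libraries are exact binomial (Clopper-Pearson) on estimated reads, at the reads per FPKM of each library. Genes named are the immunoproteasome genes, their counterparts, the other activators, tissue-restricted genes, the 3 highest and lowest by level and by ratio, and up to 4 per list; others are said to be chosen after their values were seen. The members and lists were chosen with earlier results of these data known. Steps were tested on simulated data. Alternatives were the count column, as deposited and centred, other floors, a pseudocount of 0.1, features with 1 symbol only and each granulocyte replicate alone. Python 3.11.15, pandas 2.3.3, numpy 2.4.6 and scipy 1.17.1 were used. Some items that the rule for named genes takes, and a detail of the culture, are not reported here. B cell libraries were not analysed here.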

Additional observations from a re-analysis of the deposited data

How the results depend on the processing

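Limits: each condition had 1 biological sample, so the spread between animals or cultures is unknown, and 659 to 10636 estimated reads per measured gene limit single ratios by counting error alone. No paired analysis was possible because each group holds 1 biological sample and no result comes from a test. With a floor of a mean of 50 FPKM, added after seeing the data, the other proteasome genes had a median log2 ratio of 0.026 for LncHSC-1 knockdown over control, and in the centred count column 0.034. In the count column as deposited, all features shifted by −0.14 for LncHSC-2 knockdown over control and 0.12 for LncHSC-1 over LncHSC-2. There the medians for LncHSC-2 over control were −0.17 (immunoproteasome) and −0.14 (other), and for LncHSC-1 over LncHSC-2 0.33 and 0.15. In the latter comparison 3 of 41 genes were past 0.32 in size, and the share of all shifted features past it is not given. After centring, the medians for LncHSC-1 over LncHSC-2 were 0.21 and 0.030. Count columns, not per length, gave Psmb8 over Psmb5 as 2.86 in granulocytes, 3.77 (LncHSC-1), 3.41 (LncHSC-2) and 3.41 (control), Psmb9 over Psmb6 as 1.83, 1.46, 1.19 and 1.27, and Psmb10 over Psmb7 as 0.426, 0.930, 0.745 and 0.789 in that order. With either granulocyte replicate alone, the FPKM ratios are the values given per replicate. The median level after LncHSC-2 knockdown was 122 FPKM over members at 1 FPKM or more. Of 60 single-gene ratios 37 moved beyond their interval in the count column as deposited. In the centred column, with no floor and with a pseudocount of 0.1, 0 of 60 did, and 0 of the 57, 48 and 57 left at a floor of 20 FPKM, at 50 FPKM and among features with 1 symbol.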

Other observations

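The assembly and accessory factors of the proteasome were unevenly spread between granulocytes and KSL cells, again relative to the median of the 31 core genes of the same cells. The genes here were chosen after their values were seen, and the lengths of their features in the deposited tables were not compared. The core assembly chaperones lay lower in granulocytes: Psmg1 was at 0.14 of the core median in granulocytes and 0.52 in control KSL cells, Psmg2 at 0.07 in granulocytes and 0.45 in control KSL cells, Psmg3 at 0.23 in granulocytes and 0.33 in control KSL cells, and Psmg4 at 0.12 in granulocytes and 0.47 in control KSL cells. Pomp, which completes the assembly of the core, was at 1.83 in granulocytes and 1.50 in control KSL cells. Shfm1, the smallest subunit of the lid, had 299.5 FPKM in granulocytes and 318 FPKM in control KSL cells, which is 13.7 times the core median in granulocytes and 2.57 times in control KSL cells. Nfe2l2, a stress-response transcription factor, had 78.0 FPKM in granulocytes and 50.8 FPKM in control KSL cells, and the deubiquitinase gene Usp14 had 2.22 FPKM in granulocytes and 47.2 FPKM in control KSL cells.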
